A study of Mus musculus with 27 samples.

Results

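A set of 9 NLRP genes known from mouse oocytes, Nlrp5 aside, was followed across the libraries: Nlrp14, Nlrp2, Nlrp4a, Nlrp4b, Nlrp4e, Nlrp4f, Nlrp9a, Nlrp9b and Nlrp9c. They were chosen by name, and all 9 were found among the 51789 genes of the count table through their Ensembl IDs. NLRP proteins carry a pyrin domain, a nucleotide-binding NACHT domain and leucine-rich repeats, and several members of the family build inflammasomes in immune cells. The members studied here form a reproductive branch: their RNA is stored in the growing oocyte, and some of the proteins associate with the subcortical maternal complex, a large assembly under the egg membrane that the early embryo needs.

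The libraries were 3' tag libraries (Lexogen QuantSeq) of polyA RNA from whole mouse ovary, 27 in all, from 2 experiments. Experiment 1 held 4 aged mice treated with TRi-1, an inhibitor of thioredoxin reductase 1, with 4 aged untreated mice and 5 young untreated mice. Experiment 2 held 4 aged mice treated with auranofin, a gold compound that inhibits thioredoxin reductases, with 5 aged untreated mice and 5 young untreated mice. The labels give age as young or aged only, with no strain, dose or duration, and each library carries its own replicate number, taken here as 1 mouse. Library totals ran from 6460903 to 14814381 counts, and no pair of libraries within a group was a copy.

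A single young library stood apart. Young replicate 3 of experiment 2 had 0 counts of all 9 genes and a summed level of 5.02 CPM (counts scaled to normalised library size) over 13 oocyte markers, against 59.1 to 168 CPM in the other 4 young libraries of that experiment. In it 9 of the 13 oocyte markers were at 0, the granulosa cell markers summed to 77.5 CPM against 358 to 860 CPM in the other 4, and immune NLR genes and inflammasome partners summed to 335 CPM against 74.2 to 90.4 CPM. Its macrophage markers summed to 418 CPM, against 272 to 784 CPM in the other 4. Its B and plasma cell markers summed to 30.1 CPM (10.6 to 39.8 CPM in the other 4) and its T cell markers to 2.17 CPM (3.41 to 11.2 CPM). Results of experiment 2 are therefore given with and without this library.

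Of the 9 genes, 8 lie on chromosome 7 and Nlrp4f on chromosome 13 (GENCODE M21, GRCm38). Nlrp9c (chr7:26322473-26403700, minus strand), Nlrp4a (chr7:26435113-26476142, plus strand) and Nlrp9a (chr7:26535023-26575615, plus strand) are neighbours, with gaps of 31.4 kb and 58.9 kb between them. The next closest pair on the chromosome, Nlrp4e (chr7:23301192-23362277, plus) and Nlrp9c, is 2960.2 kb apart. The others are Nlrp2 (chr7:5298547-5351035, minus), Nlrp4b (chr7:10687789-10730168, plus), Nlrp9b (chr7:19991465-20073306, plus), Nlrp14 (chr7:107166990-107198102, plus) and Nlrp4f (chr13:65177111-65205977, minus). Although the Nlrp4 and Nlrp9 genes are copies of each other, their 3' ends can be told apart: of all 50-base words in the last 500 bases of the longest coding transcript, 0% occurred in another gene's transcripts for 7 of the 9 genes. The exceptions were Nlrp4a (2.69%) and Nlrp4f (2.22%). Of the 9 genes, 4 overlap another annotated gene, and the strand of counting is not stated: Nlrp2 overlaps Gm5065 and Gm18757 on the opposite strand, Nlrp4b overlaps Gm45379, Nlrp9b overlaps Gm18877 and n-R5s152, and Nlrp4e overlaps Krt8-ps.

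The copies also resemble each other upstream of their starts. RefSeq promoter windows (GRCm38.p6) were matched for 8 of the 9 genes; Nlrp14 had no entry. The sequences of the closest pairs are shown so that the levels of copies can be read beside what they share. They read 5' to 3' on the gene's strand and end at the base before the start, except that the last 4 bases before the Nlrp4b start are left off because they are exonic. In Nlrp9a (chr7:26534823-26535022, plus) and Nlrp9c (chr7:26403701-26403900, minus) capitals mark an identical run of 106 bases.
Nlrp9a: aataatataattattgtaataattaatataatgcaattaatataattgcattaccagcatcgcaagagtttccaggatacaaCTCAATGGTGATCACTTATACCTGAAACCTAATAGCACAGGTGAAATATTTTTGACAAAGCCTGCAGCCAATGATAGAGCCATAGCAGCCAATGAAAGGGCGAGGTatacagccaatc
Nlrp9c: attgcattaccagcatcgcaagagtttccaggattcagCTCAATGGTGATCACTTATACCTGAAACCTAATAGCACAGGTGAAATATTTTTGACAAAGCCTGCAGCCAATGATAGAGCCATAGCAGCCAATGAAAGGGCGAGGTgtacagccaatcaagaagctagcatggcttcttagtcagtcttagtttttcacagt
In Nlrp4a (second annotated start, chr7:26435414-26435613, plus) and Nlrp4b (chr7:10687593-10687788, plus) capitals mark matches to CANNTG, the E-box that basic helix-loop-helix factors bind.
Nlrp4a: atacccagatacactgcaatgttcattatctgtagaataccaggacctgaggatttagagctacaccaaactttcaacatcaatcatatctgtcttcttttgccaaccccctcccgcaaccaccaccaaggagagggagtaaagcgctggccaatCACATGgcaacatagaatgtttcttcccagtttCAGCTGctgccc
Nlrp4b: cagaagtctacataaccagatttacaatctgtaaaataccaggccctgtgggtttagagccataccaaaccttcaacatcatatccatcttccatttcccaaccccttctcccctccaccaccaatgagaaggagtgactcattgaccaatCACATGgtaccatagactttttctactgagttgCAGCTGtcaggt
Over the full 250 bases before the starts shown, Nlrp4a and Nlrp4b were 68.4% identical and Nlrp9a and Nlrp9c 65.7%, while no other pair of genes exceeded 51.6%. With the other annotated start of Nlrp4b the Nlrp4 pair was 60.2% identical. With the first start of Nlrp4a it was 47.4% or 48.2%, no higher than other pairs. Counted back from the start, the shared run spans -118 to -13 in Nlrp9a and -162 to -57 in Nlrp9c. The same CACATG and CAGCTG stand in both Nlrp4 windows. CANNTG, searched in these 250 bases on both strands, was found for 6 of the 8 genes (Nlrp4a, Nlrp4b, Nlrp4f, Nlrp9a, Nlrp9b and Nlrp9c), a share to be read beside the 66.2% of all 32851 promoters that hold it. TAATTG, a homeodomain core that NOBOX binds, was found for Nlrp9a and Nlrp9b (7.17% of all promoters), and TATAAA for Nlrp9b (12.4%). CACGTG, which is one form of CANNTG, was found for 0 of the 8 (6.02%). The windows of Nlrp4f (chr13:65205717-65205966) and Nlrp9b (chr7:20007773-20008022) lie within the annotated genes, before internal starts. So does the Nlrp4a window shown (chr7:26435414-26435613), so the 68.4% of the Nlrp4 pair rests on sequence within Nlrp4a, not upstream of that gene. For Nlrp4f the nearest 200 bases were all exonic to Nlrp4f, so its match is not upstream of the gene.

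In young ovaries every one of the 9 genes was detected. Nlrp14, which mouse eggs need for the early embryo to develop, led the group. It had 279, 287, 280, 439 and 370 counts in the 5 young libraries of experiment 1, and 91, 296, 0, 203 and 299 counts in those of experiment 2. Its mean was 46.9 ± 9.32 CPM in experiment 1 and 19.1 ± 15.7 CPM in experiment 2 (SD, n = 5 each), or 23.8 ± 13.3 CPM without the library at 0 (n = 4). Nlrp14 alone made up 48.4% of the counts of the 9 genes in experiment 1 (44.0% to 53.0% over 5 libraries) and 51.2% in experiment 2 (40.1% to 64.7% over the 4 libraries with counts).

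**Figure D1:**
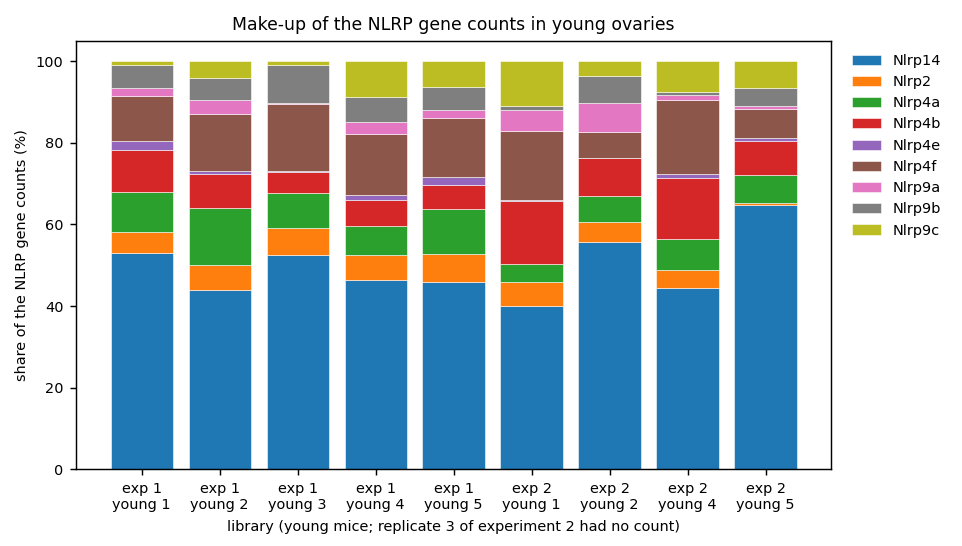
Share of the summed counts of the 9 genes that each gene took (vertical axis, percent), in each young library with counts (horizontal axis; 5 of experiment 1 and 4 of experiment 2). Nlrp14 takes the tallest segment in each, from 40.1% to 64.7%, and Nlrp4e at most 2.09%.

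Levels were put in order per kilobase of the longest coding transcript, although 3' tags depend little on length. In experiment 1 Nlrp14 stood at 14.3 ± 2.85 CPM per kb (SD, n = 5) and its lowest library, at 9.64, lay above the highest of Nlrp4f, at 4.81. Below it came Nlrp4f (4.00 ± 1.24), Nlrp4a (2.32 ± 0.832), Nlrp4b (2.02 ± 0.392), Nlrp9b (1.89 ± 0.640), Nlrp2 (1.80 ± 0.540), Nlrp9c (1.42 ± 1.25), Nlrp9a (0.642 ± 0.398) and Nlrp4e (0.332 ± 0.208). From Nlrp4f down, each gene's range over libraries overlapped that of the next. The genes were measured in the same libraries, so this overlap does not show that neighbours were equal, and the order was not tested. In experiment 2 without replicate 3, Nlrp14 (7.28 ± 4.07 CPM per kb, n = 4) again lay above all libraries of the second gene, here Nlrp4b (1.53 ± 0.585), and Nlrp4e (0.0622 ± 0.0626) was again last.

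The copies with the shared upstream run were not equally abundant in each library. Nlrp9c had 5, 27, 5, 82 and 50 counts and Nlrp9a 11, 22, 2, 28 and 16 counts in the young libraries of experiment 1. In experiment 2 Nlrp9c had 25, 19, 0, 34 and 30 counts and Nlrp9a 12, 38, 0, 5 and 3 counts. Nlrp9c exceeded Nlrp9a in 7 of the 9 young libraries with counts, and Nlrp4a exceeded Nlrp4b in 4 of 9. These pairs were picked for their sequence and the counts are given as a description. Nlrp9b is also known from the gut epithelium, where it takes part in sensing viral RNA.

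The first comparison asks how ovaries of aged mice differ from those of young mice. In experiment 1 all 9 genes were lower in every aged library than in every young library, and 32 of 36 gene values in the 4 aged libraries were 0. Of the genes that passed the expression filter, 7 of 7 fell (edgeR quasi-likelihood test, adjusted p under 0.05 over all genes), where 16.4% of all 16028 genes tested were called lower. The lack of overlap between groups compares with 13.6% of the genes tested. Nlrp4e and Nlrp9c did not pass the filter, and the other 7 passed it through the young libraries alone. With no filter, 9 of 9 fell (10.1% of all genes). In bulk ovary, fewer oocytes and less RNA per oocyte cannot be told apart.

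**Figure D2:**
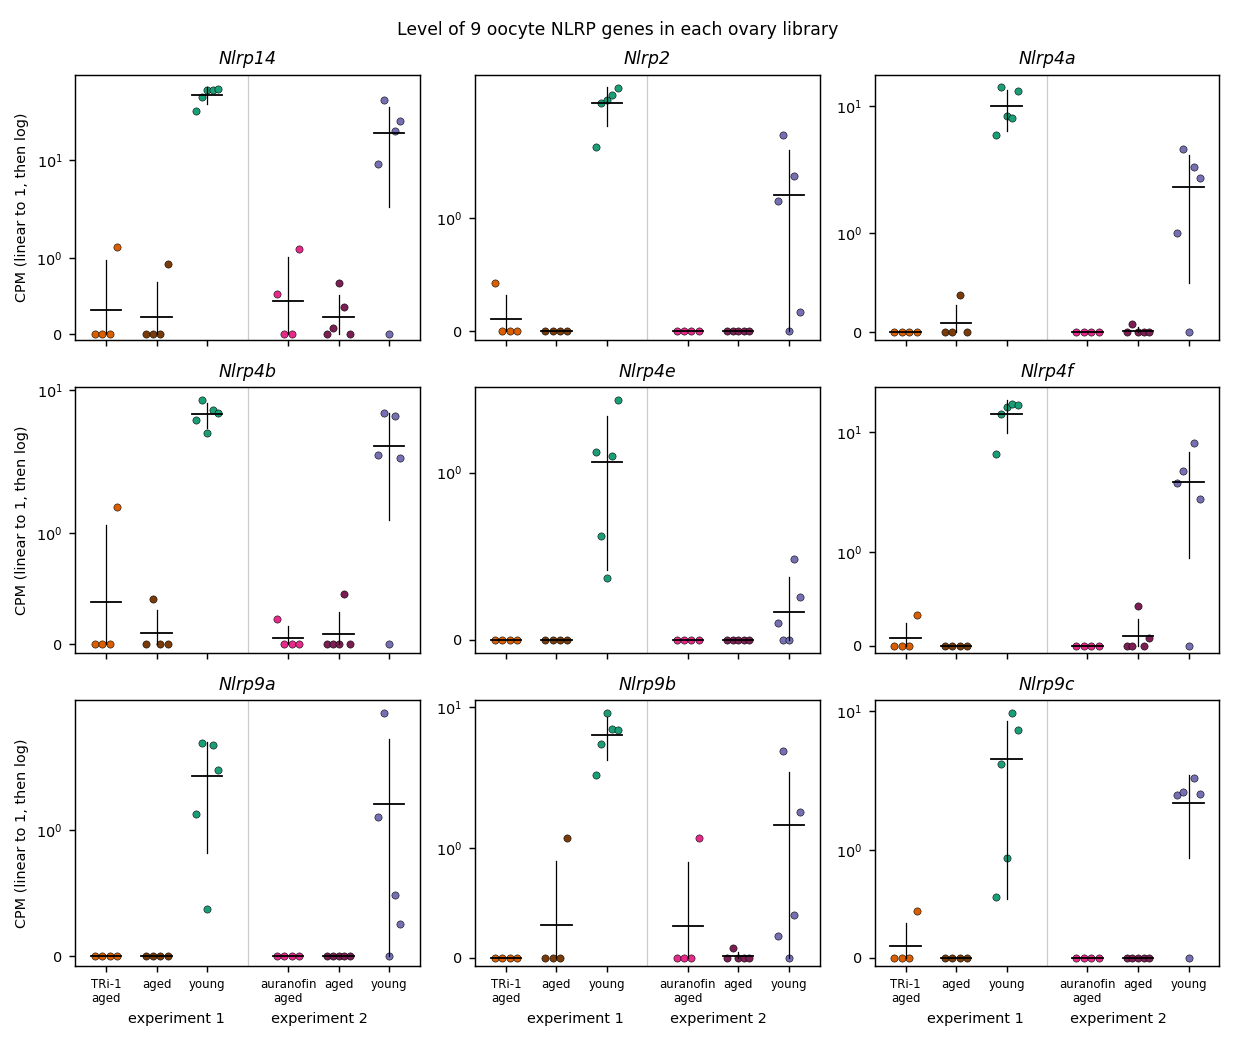
CPM of each gene (vertical axis, linear to 1 and then logarithmic) in each library (points) of the 6 groups (horizontal axis), with the mean as a bar and the SD as a line cut off at 0. Aged libraries lie below young libraries for every gene in experiment 1, and 1 young library of experiment 2 lies at 0 throughout; Nlrp14 averages 0.231 CPM in aged ovaries of experiment 1 and 46.9 CPM in young ones.

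Nlrp14 had 0, 0, 0 and 11 counts in the 4 aged libraries, against 279 to 439 counts in young ones. Only aged replicate 4 had any. Over pooled counts it was 170-fold lower in aged than in young ovaries (95% counting interval 94.7 to 341), and its fitted log2 fold change was -7.39 ± 0.922 (SE, adjusted p = 2.55e-05). Without aged replicate 4 the aged group was at 0 and the fold at least 439.5. Such intervals cover counting error only, and no molecular identifiers are stated.

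Nlrp2 and Nlrp4f encode proteins that associate with the subcortical maternal complex, and mouse eggs without either give embryos that develop poorly. Nlrp4f had 0 counts in all 4 aged libraries, against 58, 92, 87, 143 and 116 counts in young ones. Nlrp2 likewise had 0 counts in all 4 aged libraries, against 27, 40, 35, 59 and 54 counts in young ones. No library of one group came near the other. With a floor of 3 counts over the aged group, Nlrp4f was at least 187-fold lower (adjusted p = 1.34e-05) and Nlrp2 at least 80.9-fold lower (adjusted p = 0.000174).

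Among the other Nlrp4 copies, Nlrp4a had 0, 0, 4 and 0 counts in aged libraries, against 52, 91, 45, 67 and 90 counts in young ones. It was 97.3-fold lower (37.7 to 359; log2 fold change -6.46 ± 0.853, adjusted p = 9.52e-05). Nlrp4b had 0, 4, 0 and 0 counts in aged libraries, against 54, 55, 27, 60 and 47 counts in young ones. It was 68.6-fold lower (26.4 to 254; log2 fold change -5.87 ± 1.27, adjusted p = 0.00207). In each case 1 aged library carried all the counts. Nlrp4e, which is needed for cleavage of mouse embryos, had 0 counts in aged libraries and 11, 4, 2, 10 and 15 counts in young ones, at least 15.8-fold lower.

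Of the Nlrp9 copies, Nlrp9a and Nlrp9c had 0 counts in all 4 aged libraries and were at least 29.7-fold (adjusted p = 0.00257 for Nlrp9a) and at least 63.6-fold lower than in young ones. Nlrp9b had 0, 0, 0 and 14 counts in aged libraries, against 29, 35, 49, 58 and 47 counts in young ones. It was 17.6-fold lower (10.3 to 32.7; log2 fold change -4.24 ± 1.05, adjusted p = 0.00714). Its counts in aged ovaries came from aged replicate 4, which also held all aged counts of Nlrp14; without it Nlrp9b was at least 57.9-fold lower. Without that library the summed level of the 9 genes in the aged group was 0.261 CPM, against 0.720 CPM with it.

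**Figure D3:**
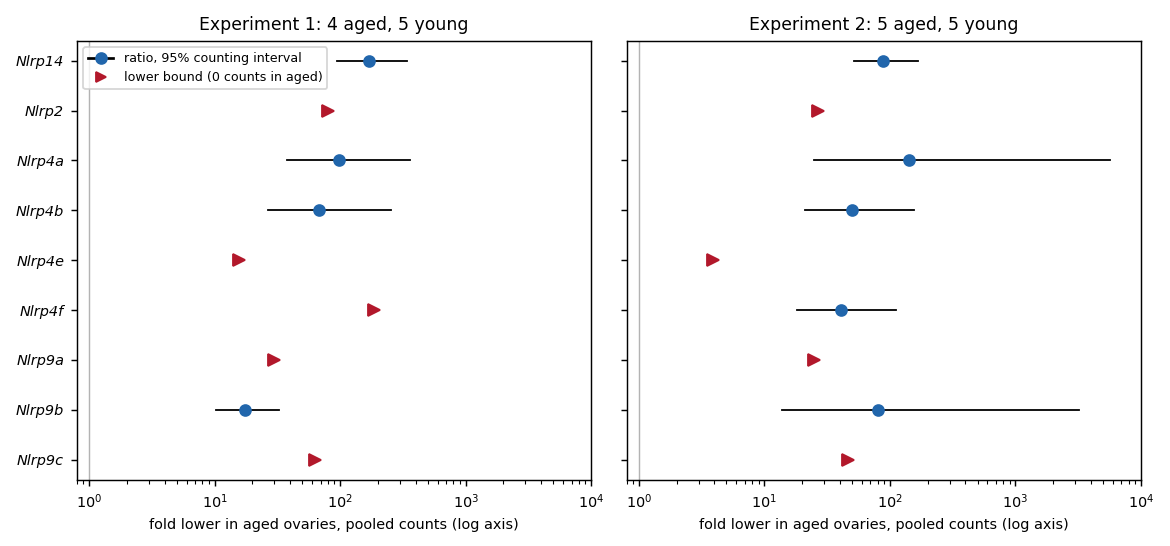
Fold by which each gene was lower in aged than in young ovaries (horizontal axis, logarithmic, pooled counts), for experiment 1 (left) and experiment 2 with all 5 young libraries (right). Circles are ratios with 95% counting intervals and triangles are lower bounds where aged ovaries had 0 counts; values run from 17.6 to at least 187 in experiment 1, apart from the bound of 15.8 for Nlrp4e.

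In experiment 2 the spread among young libraries was wider. Of the 5 that passed the filter (Nlrp4a, Nlrp4b, Nlrp4f, Nlrp9c and Nlrp14), 5 of 5 fell, where 4.59% of all 16309 genes tested were called lower. As in experiment 1, they passed it through the young libraries alone, which favours a fall. With no filter, 7 of 9 fell (2.58% of all genes), and Nlrp4e and Nlrp9b did not pass the test. Because young replicate 3 had no count, 0 of the 9 genes were free of overlap between the groups (4.7% of the genes tested). Without that library 8 of 9 were lower in every aged library than in every young one (7.66%), Nlrp4e being the exception with 1, 0, 5 and 3 counts in young ovaries. Without it 5 of 5 again fell (4.71% of all genes). Without young replicate 1, 2, 4 or 5, only Nlrp14 passed the filter, and it fell each time (2.87%, 3.04%, 4.27% and 4.01% of all genes called lower).

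Nlrp14 had 0, 1, 8, 4 and 0 counts in the 5 aged libraries of experiment 2, against 91, 296, 0, 203 and 299 counts in young ones. Apart from young replicate 3, the groups were far apart. It was 88.8-fold lower in aged ovaries (51.7 to 167; log2 fold change -6.40 ± 1.36, adjusted p = 0.0067), and 109-fold lower (63.2 to 205; adjusted p = 0.00102) without young replicate 3. Without aged replicate 3, which held 8 of its 13 aged counts, it was 187-fold lower (79.9 to 578).

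Nlrp4f had 0, 0, 5, 0 and 1 counts in aged libraries, against 38, 34, 0, 83 and 33 counts in young ones (log2 fold change -5.15 ± 1.32, adjusted p = 0.0259). Nlrp4b had 0, 0, 0, 5 and 0 counts in aged libraries, against 35, 50, 0, 68 and 39 counts in young ones (-5.43 ± 1.38, adjusted p = 0.0199). The Nlrp4b call was lost without aged replicate 3 (adjusted p = 0.0507), and the Nlrp4f call without aged replicate 1, 2, 4 or 5 (adjusted p = 0.0564 to 0.0606). With all libraries Nlrp4f was 40.7-fold lower by pooled counts, and 198-fold lower (35.1 to 7862) without aged replicate 3, which held 5 of its 6 aged counts. Nlrp4b was 49.9-fold lower, and at least 68.3-fold lower without aged replicate 4, which held all of its aged counts. Without young replicate 3, Nlrp4f was 49.8-fold lower (22.4 to 137; adjusted p = 0.00594) and Nlrp4b 61.0-fold lower (25.7 to 190; adjusted p = 0.0054).

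Nlrp4a had 1 count, in aged replicate 2, against 10, 33, 0, 34 and 32 counts in young libraries (log2 fold change -6.43 ± 1.37, adjusted p = 0.00989). It was 142-fold lower by pooled counts (24.9 to 5641), 173-fold lower (30.4 to 6900; adjusted p = 0.00206) without young replicate 3, and at least 38.2-fold lower without aged replicate 2. Nlrp9c had 0 counts in aged libraries and was at least 46.7-fold lower (adjusted p = 0.0177), or at least 57.2-fold (adjusted p = 0.00346) without that library. Nlrp2 and Nlrp9a also had 0 counts in aged libraries, at least 26.8-fold and 25.1-fold lower. Their young counts were uneven: 13, 27, 0, 20 and 2 for Nlrp2, and 12, 38, 0, 5 and 3 for Nlrp9a. Nlrp9b had 1 count over the aged libraries, against 2, 35, 0, 4 and 21 counts in young ones, 80.5-fold lower (13.9 to 3230), and Nlrp4e 0 against 9 counts in all, at least 3.9-fold lower. Without young replicate 3 the folds were at least 32.8 for Nlrp2, at least 30.7 for Nlrp9a, 98.5 for Nlrp9b (17.0 to 3951) and at least 4.77 for Nlrp4e. Without young replicate 2 they were at least 17.8 for Nlrp2, at least 10.2 for Nlrp9a and 41.3 for Nlrp9b (6.80 to 1689). Nlrp9b was at least 21.8-fold lower without aged replicate 2, and Nlrp4e at least 2.20-fold lower without young replicate 4.

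In the fit of all libraries, 8 of 8 genes tested fell with age over both experiments (17.8% of 17484 genes were called lower). They too passed the filter through young libraries alone, and with no filter 9 of 9 fell (12.4% of all genes). The size of the age effect was not shown to differ between the experiments. By edgeR 0 of 8 genes were called (0% of all genes), and by DESeq2 0. At an unadjusted edgeR p under 0.05 there was 1 of 8, Nlrp4f. Nlrp2, Nlrp9a and Nlrp9c were at 0 in both untreated aged groups, so this test could not call them. Young ovaries of experiment 1 were set against those of experiment 2 in the same way, and 0 of 8 genes were called (edgeR; 4.76% of all genes in either direction; Nlrp4a and Nlrp4f at an unadjusted p under 0.05; 0 by DESeq2). The median log2 difference was 1.58, higher in experiment 1. Without young replicate 3 of experiment 2 it was 1.26, and 0 of 8 were called (edgeR, smallest adjusted p = 0.192). Hepatocyte markers moved in the same comparison: 3 of 4 were called higher in young ovaries of experiment 1 (median log2 difference 4.25), and they summed to 132 to 380 CPM there and 3.08 to 26.1 CPM in young ovaries of experiment 2, with none of the 4 at 0 in all libraries of either group. Without young replicate 3 of experiment 2, 1 of 4 was called. Of 4 oviduct and uterine epithelium markers 0 were called (edgeR, smallest adjusted p = 0.0603). The part of these markers in the difference was not tested. Nlrp4a alone did not overlap, at 5.88 to 14.1 CPM in young ovaries of experiment 1 and 0 to 4.58 CPM in those of experiment 2 (3.85% of all genes tested were higher in this way).

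Other oocyte transcripts fell with the NLRP genes. In experiment 1 the 6 genes of the subcortical maternal complex and its partners all fell (median log2 fold change -5.09, or -3.95 with genes at 0 set to their bound), as did 12 of 12 oocyte markers tested (-6.32, or -6.24), beside a median of 0.02 over all genes. The median over the 7 NLRP genes tested was -7.26, or -6.34 with bounds. Over all genes 16.4% were called lower in experiment 1 and 4.59% in experiment 2, or 4.71% without young replicate 3 of experiment 2. Zp2, Zar1 and Mos were at 0 in all 4 aged libraries of experiment 1, so they passed the filter through other groups. Nlrp5 (MATER), the family member that forms part of the complex itself, had a log2 fold change of -9.01 ± 0.627 (adjusted p = 1.88e-06). Tle6, from the same 6 genes and also expressed outside oocytes, had -1.83 ± 0.361 (adjusted p = 0.00108). Nobox, an oocyte transcription factor, fell too (adjusted p = 0.000163). In experiment 2, 3 of 5 complex genes (Nlrp5, Tle6 and Padi6) and 9 of 11 oocyte markers fell, with medians of -2.03 and -4.80 beside -0.03 over all genes. There 0 of 2 oocyte transcription factors tested were called (edgeR, adjusted p at least 0.163), and Nobox was not among those tested. Taf4b, tested in both, had a log2 fold change of -0.964 ± 0.336 in experiment 1 (adjusted p = 0.0353) and -0.947 ± 0.401 in experiment 2 (adjusted p = 0.163). Without young replicate 3 the same 3 complex genes and 10 of 11 oocyte markers fell, with medians of -2.33 and -5.12, and again 0 of 2 transcription factors were called.

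**Figure D4:**
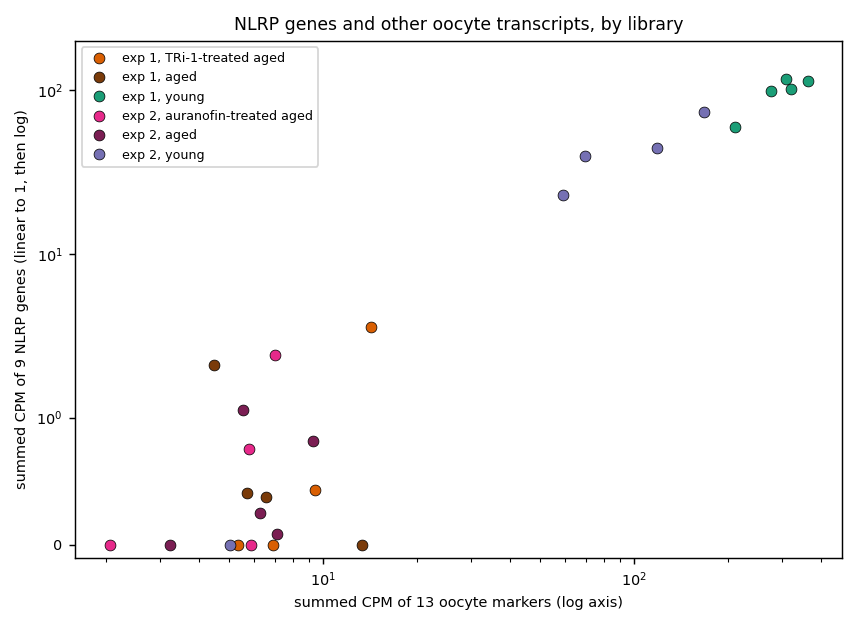
Summed CPM of the 9 NLRP genes (vertical axis, linear to 1 and then logarithmic) against summed CPM of 13 oocyte markers (horizontal axis, logarithmic), 1 point per library, coloured by group. Of the 10 young libraries, 9 lie at 22.8 CPM or more of NLRP genes, and young replicate 3 of experiment 2 lies at 0 among the aged libraries.

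The NLRP counts were also set against the oocyte marker counts. Untreated aged ovaries of experiment 1 held NLRP counts equal to 11.5% of the oocyte marker counts, against 32.8% in young ones. Aged replicate 4 held 25 of the 33 NLRP counts, and its own share, 47.2%, lay above every young library (28.3% to 38.1%); without it the aged share was 3.42%, and without aged replicate 1 it was 18.4%. In experiment 2 the shares were 6.86% in aged ovaries and 43.2% in young ones, or 43.7% without young replicate 3; without aged replicate 3 the aged share was 4.14%. Of the 666 marker counts in the 9 untreated aged libraries, 77.0% came from Gdf9 (37.1%), Oosp1 (25.5%) and Dppa3 (14.4%), while Zp2 and Mos were at 0 in all 9. These ratios are descriptions and were not tested.

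Markers of other cells moved with age as well. In experiment 1, 5 of 6 granulosa cell markers tested fell and summed to 31.7 to 135 CPM in aged ovaries, against 265 to 803 CPM in young ones, with Amh and Fshr at 0 in all 4 aged libraries. All 6 macrophage, 4 B and plasma cell and 3 T cell markers rose. The macrophage sum was 1605 to 3979 CPM in aged and 282 to 594 CPM in young ovaries. Experiment 2 gave the same counts of risen immune cell markers, and 2 of 6 granulosa markers fell. Without young replicate 3 these were 5 of 6 macrophage, 4 of 4 B and plasma cell and 3 of 3 T cell markers, and again 2 of 6 granulosa markers. Of all genes 16.4% were called lower and 18.5% higher in experiment 1, and 4.59% and 5.86% in experiment 2. Without young replicate 3 the latter were 4.71% and 6.47%. Of 4 hepatocyte markers 0 were called in experiment 1 (edgeR, smallest adjusted p = 0.19) and 1 of 2 tested fell in experiment 2, while of 4 oviduct and uterine epithelium markers 1 rose in experiment 1 and 0 were called in experiment 2 (edgeR, smallest adjusted p = 0.123). The hepatocyte markers were very uneven in aged ovaries of experiment 1, at 0.862 to 1409 CPM summed, against 132 to 380 CPM in young ones. The part of these shifts in the NLRP values was not tested.

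Some NLR genes of immune cells rose in aged ovaries. Of 14 immune NLR genes and inflammasome partners tested in experiment 1, 7 rose and 0 fell (18.5% of all genes were called higher), with a median log2 fold change of 1.24. They included Nlrc5, an activator of MHC class I genes (3.72 ± 0.548, adjusted p = 0.000102), the peptidoglycan sensor Nod1 (1.36 ± 0.221, adjusted p = 0.000227), and the inflammasome parts Pycard (1.22 ± 0.206, adjusted p = 0.00032) and Casp1 (1.87 ± 0.381, adjusted p = 0.00133). In experiment 2, 4 of 16 rose (Nod1, Nod2, Nlrc5 and Naip2; 5.86% of all genes), and without young replicate 3 it was 7 of 16 (6.47%), with Casp1, Pycard and Nlrc4 added. The summed level of the list was 197 to 221 CPM in aged and 66.6 to 87.7 CPM in young ovaries of experiment 1. Nlrp4c, Nlrp4d and Nlrp4g, further Nlrp4 copies, did not pass the filter and summed to 0 CPM in aged and at most 1.31 CPM in young ovaries.

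The second comparison asks whether inhibitors of thioredoxin reductase changed aged ovaries. Neither treatment gave a call among the 9 genes. With TRi-1, 0 of 7 genes tested were called (edgeR, smallest adjusted p = 0.209; 1 of 7, Nlrp9b, at an unadjusted p under 0.05; 0 by DESeq2), where 0.418% of all genes were called in either direction. With auranofin, 0 of 5 were called (edgeR, smallest adjusted p = 0.774; 0 at an unadjusted p under 0.05; 0 by DESeq2; 0.0184% of all genes). The aged groups held few counts of these genes, and the log2 fold change of Nlrp14 was 0.20 ± 1.22 with TRi-1 and 0.96 ± 1.42 with auranofin. Nlrp9a, among the 7 tested with TRi-1, and Nlrp9c, among the 5 with auranofin, were at 0 in both groups compared, so neither could be called. The difference of the TRi-1 effect from the auranofin effect gave 0 of 8 calls by edgeR (smallest adjusted p = 0.284) and 0 by DESeq2. Of all genes 0.0172% were called by edgeR. Nlrp4f and Nlrp9b were at an unadjusted edgeR p under 0.05. Groups at 0 left this difference undetermined for Nlrp2, Nlrp4a, Nlrp9a and Nlrp9c, so it could not call them.

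The 4 TRi-1-treated libraries held 37 counts of the 9 genes, against 33 in the 4 untreated aged ones. Replicate 4 carried 33 of the 37: 14 of Nlrp4b, 12 of Nlrp14, 4 of Nlrp9c and 3 of Nlrp4f. The other 3 treated libraries held 4 counts, all of Nlrp2 in replicate 1. Replicate 4 was also the one aged library with all 13 oocyte markers above 0. Its granulosa cell markers summed to 1272 CPM, against 63.5 to 173 CPM in the other 3, and their part in the result was not tested.

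The 4 auranofin-treated libraries held 39 counts, against 26 in the 5 untreated aged ones of experiment 2. Replicate 4 carried 29 of them (15 of Nlrp14 and 14 of Nlrp9b) and replicate 1 the other 10 (7 of Nlrp14 and 3 of Nlrp4b). Replicates 2 and 3 had none. The granulosa cell markers summed to 638 CPM in replicate 4 and 250 CPM in replicate 1, against 71.2 and 23.1 CPM in replicates 2 and 3. Over all 17 aged libraries, treated or not, 6 had no count of any of the 9 genes, 4 had counts of 1 gene and 7 had counts of at least 2, with 15 as the highest count of any gene in a library.

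Set against young ovaries, the treated aged ovaries differed in the same direction as the untreated ones, with which they share the young libraries. With all libraries in the fit, the genes tested again passed the filter through the young libraries alone. With TRi-1, 7 of 7 genes were lower than in young ovaries (10.1% of all genes) and all 9 did not overlap (10.7%); with no filter 9 of 9 were called (5.82%). Nlrp14 was 153-fold lower (87.5 to 297), and Nlrp4b, the lowest ratio among genes with a treated count, 19.3-fold lower (11.3 to 35.8). Without TRi-1 replicate 4, which held all treated counts of both, the folds were at least 471 and at least 69.2. With auranofin, 5 of 5 were lower than in young ovaries (3.56% of all genes), with no filter 5 of 9 (1.83%), and the groups were free of overlap for 0 of 9 genes (4.26%), or 7 of 9 without young replicate 3 (7.41%). Nlrp14 was 43.9-fold lower (28.8 to 70.3). Nlrp9b, with 14 counts in 1 treated library, was 4.81-fold lower (2.66 to 9.30). These folds were 53.6 (35.2 to 86.0) and 5.88 (3.25 to 11.4) without young replicate 3, and 5 of 5 were again called (4.6% of all genes). Without auranofin replicate 4 Nlrp14 was 106-fold lower (51.3 to 264.5) and Nlrp9b at least 17.3-fold, and without young replicate 2 Nlrp9b was 2.46-fold lower (1.25 to 5.08). The auranofin calls moved to 1 of 1 without young replicate 1, 4 or 5 (2.4%, 2.95% and 2.63% of all genes). They moved to 0 of 1 without young replicate 2 (2.67%), to 3 of 6 without auranofin replicate 1 (1.93%) and to 2 of 6 without auranofin replicate 2 (2.26%).

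Over the 10 young libraries, the genes whose levels followed the summed NLRP level most closely, centred within experiment, were Fbxw18 (r = 0.994), Fbxw15, Fbxw28 and Zp3 (0.993 each), Fbxw21 (0.992), Rnu3a and Padi6 (0.991 each) and Fbxw24 (0.988), out of 11183 genes compared. The Fbxw genes form a cluster of similar F-box copies, so reads may be split between them. Zp3 is a zona pellucida protein of the oocyte and Padi6 a protein of its cytoplasmic lattices. These correlations rest largely on young replicate 3 of experiment 2, which lies at 0: without it r was 0.847 for Fbxw18, 0.845 for Zp3, 0.874 for Padi6 and 0.943 for Fbxw24, and the closest gene became Adipoq (0.987), a fat cell gene. All points share library depth and normalisation, and r is given as a description.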

How the data were processed

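The deposited table holds whole-number read counts per gene, not scaled between libraries, and the authors' columns match the labels' short names (0 columns of other samples). RNA was taken with an RNeasy kit and DNase I and libraries were made with QuantSeq, per the labels' protocols. RSEM 1.2.3, DESeq2 and mm10 are named, with no role, per the submitters' processing notes; annotation, filters and strand are not given in the sources used here. Symbols for 51596 of 51789 IDs came from GENCODE M21. Counts were tested in R 4.3.3 with edgeR 4.0.16: TMM normalisation, filterByExpr by group, a quasi-likelihood F test on group means and Benjamini-Hochberg adjustment over all genes (threshold 0.05). Each experiment had its own fit (13 and 14 libraries), and comparisons across experiments used all 27. Where no tool is named, an adjusted p is from edgeR. CPM use TMM sizes of the 27-library fit, and likeness used log2 CPM with a prior count of 2. Standard errors are the log2 fold change over the square root of F. Folds against 0 counts use a floor of 3 counts per group; intervals are exact at 95% for pooled counts. The tests were checked on simulated counts with 200 changed genes. Alternatives were RLE factors, no filter or a mean of 1 CPM, a replicate block, all libraries or only the groups compared, DESeq2 1.42.0 and leaving out each library. All 9 genes are named in each comparison, other lists by count with up to 4 of smallest p, and likeness by the 8 highest r at a mean of at least 5 CPM in young. Adipoq, Nod2, Naip2, Nlrc4 and the oocyte and granulosa markers named singly were added on seeing their values. The 9 genes and all lists were chosen with earlier results of these data known. Replicates are separate mice only as far as the labels say; otherwise p-values measure the spread between samples. Plots used matplotlib 3.10.9.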

Additional observations from a re-analysis of the deposited data

Results flagged for a closer look

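In 19 of 47 sets of 4 or 5 libraries checked, the highest or lowest library stood far from the others. Chance gives about 1 in 20 for values that vary continuously. In 14 of the 19 a single library was above 0, where any count stands apart by construction, so that rate does not apply to them. In aged ovaries of experiment 1 these were replicate 4 for Nlrp9b (1.17 CPM) and Nlrp14 (0.923 CPM), replicate 3 for Nlrp4a (0.374 CPM) and replicate 2 for Nlrp4b (0.408 CPM). With TRi-1 they were replicate 4 for Nlrp4b (1.52 CPM), Nlrp14 (1.30 CPM), Nlrp9c (0.434 CPM) and Nlrp4f (0.326 CPM), and replicate 1 for Nlrp2 (0.430 CPM). The sum of the 9 genes in TRi-1 replicate 4 was 3.58 CPM, against 0.429 CPM in the next library. In aged ovaries of experiment 2 they were replicate 2 for Nlrp4a and Nlrp9b (0.0846 CPM each, 1 count) and replicate 4 for Nlrp4b (0.451 CPM). Nlrp4f in aged replicate 3 of that experiment was 0.425 CPM, with 0.0820 CPM in the next library. With auranofin they were replicate 4 for Nlrp9b (1.17 CPM) and replicate 1 for Nlrp4b (0.225 CPM). Among young libraries, Nlrp4f was low in replicate 1 of experiment 1 (6.56 CPM, next 14.3 CPM). In experiment 2 Nlrp9a was high in young replicate 2 (5.27 CPM, next 1.2 CPM), and Nlrp9c was at 0 CPM in young replicate 3, with 2.51 CPM in the next library.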

How the results depend on the processing

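For age in each experiment and for young against young, no single-gene value changed sign under any alternative run that tested the gene. For aged against young in experiment 2 (5 of 5), 3 genes were called at a mean of at least 1 CPM, 8 with all 27 libraries in 1 fit, and 1 to 7 with each library left out. For auranofin-treated aged against young (5 of 5), 3 were called at a mean of at least 1 CPM and 0 to 5 with each library left out. The labels do not say whether replicate numbers pair mice. Over 25 same-numbered pairs the correlation ran from -0.267 to 0.445, and 6 were over 0.1, all in experiment 2. The highest in experiment 1 was 0.078. These values do not settle whether mice were paired. With the replicate number as a block, 2 of 5 were called for age in experiment 2 and 1 of 5 for auranofin against young, and the other counts stayed within 1.5 times. No block could be fitted for young against young, since the block was set within experiment. Leaving out each library gave 6 to 8 calls for age in experiment 1 and for TRi-1 against young, 8 throughout for age over both, and 0 throughout for both treatment comparisons and all difference tests. With only the groups compared, no member passed the filter for age in experiment 2, either treatment or the difference of treatment effects, so no value was had. Single-gene calls were followed only for age in each experiment and young against young, and only where the gene was tested. Among values followed singly, 476 alternatives gave the same label and 8 lost the call, all for age in experiment 2. Under the block the genes that lost it were Nlrp4f, Nlrp9c and Nlrp14, and the cause was not tested. Calls were lost elsewhere too: for auranofin against young, Nlrp14 had an adjusted p of 0.052 (edgeR) without young replicate 2. Folds in aged ovaries rest on 135 counts of the 9 genes in 17 libraries of 9183605 to 14814381 counts each, against 6460903 to 10077161 in young libraries.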
